A study of Mus musculus with 6 samples.

Results

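The 10 genes described here are the D-type cyclins Ccnd1, Ccnd2 and Ccnd3, the E-type cyclins Ccne1 and Ccne2, the kinases Cdk2, Cdk4 and Cdk6 that these cyclins activate, the phosphatase gene Cdc25a and the transcription factor gene Mycn. They were chosen by name, for their known roles at the start of the cell cycle, from the 27998 genes of the deposited table. All 10 had reads in every library and passed the filter on low counts, as did 11540 genes in all. Sorted testicular germ cells of mouse fetuses at E14.5 were profiled by single-cell RNA sequencing, in 3 Rb1 cKO libraries (a conditional knockout of the retinoblastoma gene) and in 3 libraries of controls labelled wildtype. Both genotypes were on a mixed C57/B6 and 129 background, and both were sorted by flow cytometry for the red fluorescent protein tdTomato. The labels give neither the Cre driver nor the deleted part of Rb1, and they do not say whether the libraries came from separate animals or litters. The p-values therefore measure the spread between these libraries, which may be technical.

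Cyclins are the regulatory subunits of cyclin-dependent kinases, and their levels set when in the cycle each kinase is active. In the textbook order, D-type cyclins with Cdk4 or Cdk6 begin the phosphorylation of the retinoblastoma protein in G1, E-type cyclins with Cdk2 complete it, and the E2F factors that it held are released to switch on genes of DNA replication. Cdc25a removes an inhibitory phosphate from these kinases, and Mycn, a relative of Myc, drives growth and proliferation in embryonic tissues. Male germ cells of the mouse stop dividing and arrest in G1 around this stage of fetal life.

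The comparison asks whether transcripts of these 10 genes differ between the Rb1 cKO libraries and the controls. E2F factors and Myc proteins bind short sequences in promoters, Myc proteins the E-box. Promoter sequences of 300 bases, 250 before and 50 after the start of transcription, were found in RefSeq (GRCm38.p6) for 7 of the 10 genes, in 8 windows. Ccnd1, Ccnd2 and Ccne2 had none. The E2F letters searched were TTTCGCGC, TTTGGCGC, TTTCCCGC and TTTGCCGC, and the E-box letters were CACGTG, both on either strand. Of all 32851 windows in the table, 2.26% held an E2F match and 7.15% an E-box. The stretches that hold the matches are shown because Cdc25a, Cdk2, Mycn and Cdk4 differ in them from Ccne1 and Ccnd3, whose windows held neither motif. They are written in the direction of transcription, with matches in capitals. They lie at chr9:109875482-109875548 on the plus strand (Cdc25a), chr10:128705152-128705221 on the minus strand (Cdk2), chr12:12941977-12942046 on the minus strand (Mycn) and chr10:127063345-127063534 on the plus strand (Cdk4). The capitals mark E2F letters in the first 3 and E-boxes in Cdk4.
Cdc25a: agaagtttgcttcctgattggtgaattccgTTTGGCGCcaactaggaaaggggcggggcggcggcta
Cdk2: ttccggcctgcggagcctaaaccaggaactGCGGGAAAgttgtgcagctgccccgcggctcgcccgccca
Mycn: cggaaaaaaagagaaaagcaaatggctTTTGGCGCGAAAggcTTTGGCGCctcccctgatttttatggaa
Cdk4: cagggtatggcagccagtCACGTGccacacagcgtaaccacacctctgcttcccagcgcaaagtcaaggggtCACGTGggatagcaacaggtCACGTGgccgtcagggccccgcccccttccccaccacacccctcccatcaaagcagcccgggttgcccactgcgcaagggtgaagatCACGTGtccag

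In Cdk2 the match GCGGGAAA reads as TTTCCCGC on the other strand. Mycn had 3 E2F matches, of which the first and second overlap within the first run of capitals. Cdk4 had 4 E-boxes, and 0.0883% of all windows held at least 3. The window of Cdk6 held 1 E-box. A match is a run of letters and no measure of binding, and its absence says only that these letters were not in the window.

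The 6 libraries held 480, 945 and 1164 cells in cKO 1 to 3 and 781, 430 and 1354 cells in controls 1 to 3 after a filter on quality, with 7598511 to 17323152 UMIs (unique molecular identifiers, 1 for each captured transcript) per library. Germ cell markers summed to 8583 to 9469 CPM (a gene's UMIs scaled to one common library total) in cKO libraries and 8726 to 9601 CPM in controls. Markers of other testis cells were low. All 8 Sertoli markers were detected, summing to 8.80 to 12.6 CPM in cKO libraries and 6.49 to 26.7 CPM in controls, with the highest value in control 3. All 7 macrophage markers were detected, at 1.15 to 3.21 CPM in cKO libraries and 3.75 to 50.1 CPM in controls, with the highest value in control 2. The Leydig markers Hsd3b1 and Insl3 were at 0, and the 6 Leydig markers summed to 0.768 to 1.31 CPM in cKO libraries and 0.981 to 1.45 CPM in controls. Stromal markers (7 of 7 detected) stood at 3.41 to 4.23 CPM in cKO libraries and 3.93 to 9.34 CPM in controls, and endothelial markers (6 of 6) at 43.8 to 58.7 CPM in cKO libraries and 50.2 to 68.9 CPM in controls. Erythroid markers (6 of 6) stood at 6.15 to 24.1 CPM in cKO libraries and 22.0 to 32.8 CPM in controls. The part of these cells in the values below was not tested.

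Rb1 itself had 3.35, 3.73 and 3.65 CPM in cKO libraries, against 10.3, 8.65 and 7.13 CPM in controls. All 3 cKO libraries were below all 3 controls, on 27 to 119 UMIs per library. The log2 fold change (cKO over control) was -1.27 ± 0.19 (SE) and the edgeR adjusted p 0.415, which does not pass 0.05. That adjusted p was 0.0422 without control 3 and ran from 0.0181 to 0.9998 over the alternatives, 0.0479 by DESeq2 among them. The captured tags may lie outside the deleted part, so this value need not check the deletion.

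Across all cells, none of the 10 genes passed the test between cKO and control. edgeR's quasi-likelihood test with Benjamini-Hochberg adjustment called 0 of the 10, and 0% of all genes, and DESeq2 called 0 of the 10 and 3 genes in all. At an unadjusted p under 0.05 edgeR listed 0 of the 10, beside 3.51% of all genes, and DESeq2 listed 1, Ccnd3. Adjusted p-values of the 10 ran from 0.994 to 0.997. The log2 fold change was positive for 8 of the 10, beside 50.1% of all genes, with a median of 0.08 beside 0.00 over all genes. In 1 of the 10, Cdk2, all cKO libraries stood above all controls, a pattern shown by 4.71% of all genes, and in none were all cKO libraries below, against 4.23% of all genes. Counted in either direction, 8.93% of all genes had groups that did not overlap. A summed library cannot tell fewer cells expressing a gene from less RNA per cell.

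**Figure D1:**
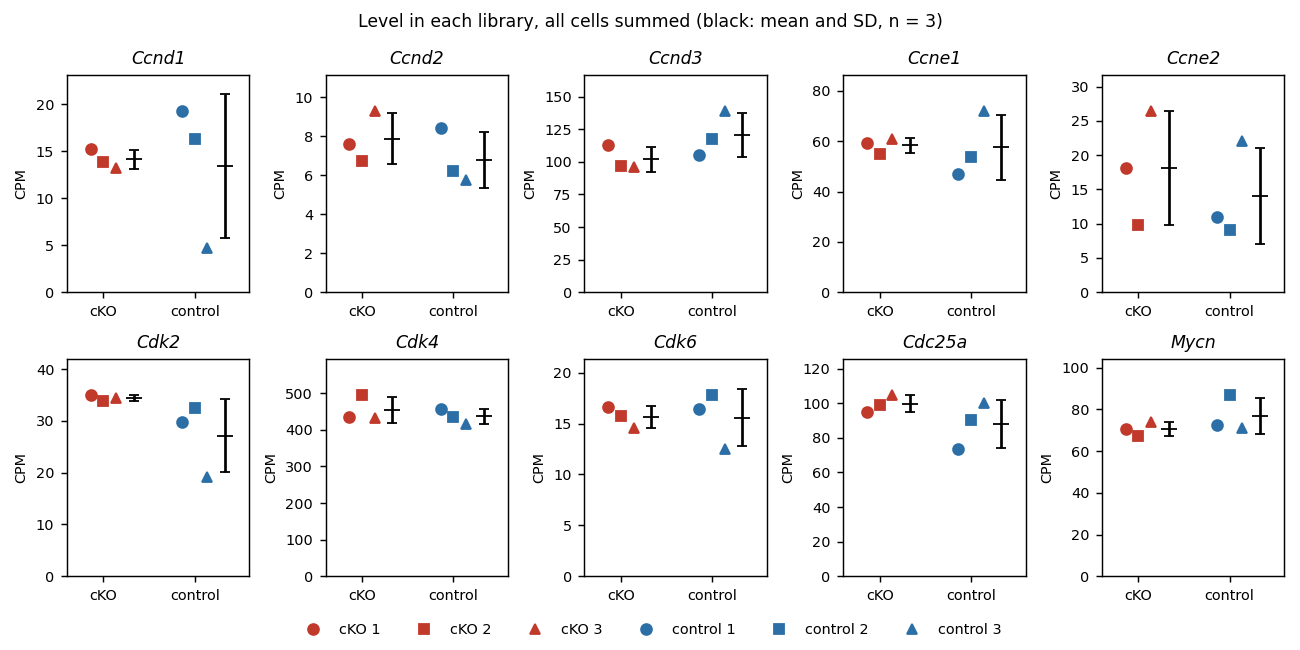
Level of each of the 10 genes in each library, as CPM with TMM factors from the sum of all cells (vertical axis, from 0), with the mean and SD of 3 libraries beside each genotype. The cKO libraries stand left of the controls; only in Cdk2 do the groups not overlap, and control 3 is the lowest library for Ccnd1, Cdk2, Cdk4, Cdk6 and Ccnd2.

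Among the D-type cyclins, Ccnd3 was by far the most abundant transcript. It lies on chromosome 17 from 47505051 to 47599691 (GRCm38). Ccnd3 had 112.7, 96.5 and 96.3 CPM in cKO libraries, against 105.6, 117.8 and 139.2 CPM in controls. All controls but the first lay above all cKO libraries, and the groups overlapped through cKO 1 and control 1. The log2 fold change was -0.25 ± 0.11 (SE), with a 95% interval of -0.50 to 0.00 and an unadjusted edgeR p of 0.0513 (adjusted p = 0.994). Without control 3 the log2 fold change was -0.13, and over the 6 fits that each left out 1 library it ran from -0.34 to -0.13.

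Ccnd1, on chromosome 7 from 144929931 to 144939925, had 15.3, 13.9 and 13.2 CPM in cKO libraries, against 19.3, 16.3 and 4.73 CPM in controls. Controls 1 and 2 were above every cKO library and control 3 was below every one. This gave a log2 fold change of 0.10 ± 0.52 (SE), with a 95% interval of -1.23 to 1.43. Its sign rested on control 3: without that library it was -0.35, with an edgeR unadjusted p of 0.0255 and an adjusted p of 0.99996. The value of control 3 rests on 79 UMIs, while the other 5 libraries had 123 to 218.

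Ccnd2, on chromosome 6 from 127125162 to 127152193, had the lowest mean CPM of the 10 genes. It had 7.57, 6.74 and 9.29 CPM in cKO libraries, against 8.42, 6.20 and 5.75 CPM in controls, and the groups overlapped. On the log2 scale cKO over control was 0.22 ± 0.20 (SE), with a 95% interval of -0.23 to 0.67. It was 0.10 without control 3, 0.074 without cKO 3 and 0.41 without control 1. Within the D-type pool, Ccnd3 made up 83.2, 82.4 and 81.0% of the UMIs of the 3 D-type cyclins in cKO libraries, against 79.2, 84.0 and 93.0% in controls, and the groups overlapped. Ccnd1 made up 11.1 to 11.8% in cKO libraries and 3.16 to 14.5% in controls, with control 3 the lowest. These are shares of captured 3′ tags, of which each molecule gives 1 whatever its length.

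The E-type cyclins differed in how evenly the libraries shared them. Ccne1, on chromosome 7 from 38097984 to 38107534, had 59.4, 55.0 and 60.8 CPM in cKO libraries, against 47.1, 53.8 and 72.1 CPM in controls. The cKO libraries lay within the range of the controls. The ratio of cKO over control on the log2 scale was 0.01 ± 0.15 (SE), with a 95% interval of -0.32 to 0.35. Its sign depended on single libraries: it was -0.11 without control 1, -0.03 without control 2, 0.21 without control 3 and -0.02 without cKO 3.

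Ccne2, on chromosome 4 from 11191351 to 11204779, had 18.1, 9.75 and 26.5 CPM in cKO libraries, against 11.0, 9.04 and 22.1 CPM in controls. Replicate 3 was the highest library in each genotype, and the groups overlapped. The log2 fold change was 0.34 ± 0.51 (SE), with a 95% interval of -0.96 to 1.65, and it was -0.06 without cKO 3. It was 0.86 without control 3. The log2 ratio of Ccne1 to Ccne2 UMIs averaged 1.80 ± 0.65 in cKO libraries and 2.13 ± 0.43 in controls (SD, n = 3 each), and the groups overlapped.

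Of the kinases, Cdk4 was the most abundant transcript of the 10 genes in every library. Cdk4, on chromosome 10 from 127063534 to 127067920, had 436.4, 495.7 and 432.6 CPM in cKO libraries, against 458.1, 436.2 and 416.1 CPM in controls. The groups overlapped. This gave a log2 fold change of 0.06 ± 0.08 (SE), with a 95% interval of -0.11 to 0.23, the narrowest of the 10, and it was -0.01 without cKO 2.

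Cdk2, the partner of the E-type cyclins, lies on chromosome 10 from 128697939 to 128705031. It had 35.0, 33.9 and 34.3 CPM in cKO libraries, against 29.8, 32.4 and 19.1 CPM in controls. All cKO libraries were above all controls, and control 3 stood well below the other 5 libraries. On the log2 scale cKO over control was 0.36 ± 0.18 (SE), with a 95% interval of -0.06 to 0.77 and an unadjusted edgeR p of 0.0815 (adjusted p = 0.994). Without control 3 it was 0.15.

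Cdk6, on chromosome 5 from 3341485 to 3531008, had 16.6, 15.8 and 14.5 CPM in cKO libraries, against 16.5, 17.8 and 12.5 CPM in controls. The groups overlapped, with control 3 the lowest library. The ratio of cKO over control on the log2 scale was 0.01 ± 0.15 (SE), with a 95% interval of -0.32 to 0.35. It was -0.13 without control 3 and -0.03 without cKO 1. Cdk4 gave 89.4 to 90.9% of the UMIs of the 3 kinases in cKO libraries and 89.7 to 92.9% in controls. Cdk2 gave 6.22 to 7.17% in cKO libraries and 4.27 to 6.66% in controls, and both shares overlapped between the groups.

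Cdc25a, on chromosome 9 from 109875579 to 109893895, had 95.1, 99.2 and 104.9 CPM in cKO libraries, against 73.3, 90.5 and 100.1 CPM in controls. The groups overlapped through control 3 alone. The log2 fold change was 0.18 ± 0.11 (SE), with a 95% interval of -0.07 to 0.43, and it was 0.29 without control 3 and 0.065 without control 1. Mycn, on chromosome 12 from 12936093 to 12941914, had 70.5, 67.1 and 74.0 CPM in cKO libraries, against 72.5, 86.9 and 70.8 CPM in controls. Control 2 was the highest library and the rest lay close together. This gave a log2 fold change of -0.12 ± 0.10 (SE), with a 95% interval of -0.33 to 0.10, and it was -0.022 without control 2. The related gene Myc was too low to test, at 0.396 to 0.869 CPM in cKO libraries and 0.539 to 0.775 CPM in controls.

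For 5 of the 10 genes the 3′ end overlaps a gene on the opposite strand in the GENCODE M21 annotation: LTO1 for Ccnd1, Gm43126 for Ccnd2, Bysl for Ccnd3, Ints8 for Ccne2 and Tspan31 for Cdk4. Whether the counting used strand is not given in the sources used here, so reads of such pairs may not be told apart. Rb1 overlaps Rcbtb2 at its 3′ end in the same way, so this limit holds for its values too. LTO1, counted under the name Oraov1, averaged 7.60 ± 1.52 CPM in cKO libraries and 7.18 ± 0.687 CPM in controls (SD, n = 3 each). Bysl averaged 51.6 ± 1.68 CPM in cKO libraries and 56.4 ± 5.04 CPM in controls (SD, n = 3 each). Tspan31 averaged 38.5 ± 1.04 CPM in cKO libraries and 35.6 ± 2.92 CPM in controls, and Ints8 43.7 ± 2.95 CPM in cKO libraries and 41.8 ± 6.85 CPM in controls.

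The partners and regulators of these genes were counted over 50 further genes in 8 lists, of which 49 were tested. edgeR called 0 of them and listed 5 at an unadjusted p under 0.05, Rb1 among them, beside 3.51% of all genes. Log2 fold changes were positive for 30 and negative for 19, with a median of 0.01. All cKO libraries stood above all controls in 5 of the 49 (Cdkn2c, Rbl1, E2f8, Cul1 and Skp2), beside 4.71% of all genes, and below in 3 (Rb1, Cdk7 and Ambra1), beside 4.23%.

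Of the CDK inhibitors, 5 of 7 had positive log2 fold changes and 2 negative ones. Below a mean of 10 CPM, Cdkn2c stood highest at 0.94 ± 0.32 (SE), on 6 to 29 UMIs per library. Its unadjusted edgeR p was 0.0150 (adjusted p = 0.994). Also below 10 CPM were Cdkn1b at 0.43 ± 0.20 (SE) and Cdkn2b, the lowest, at -0.17 ± 0.23 (SE). Among those with a mean of 10 CPM or more, Cdkn1c had the largest value and Cdkn2d the smallest. Cdkn1c, which encodes the inhibitor p57, averaged 64.2 ± 12.1 CPM in cKO libraries and 50.2 ± 13.2 CPM in controls (SD, n = 3 each), a log2 fold change of 0.37 ± 0.23 (SE) that was 0.16 without control 3 and 0.20 without cKO 2. Cdkn2d, an inhibitor of Cdk4 and Cdk6, averaged 31.6 ± 2.18 CPM in cKO libraries and 33.1 ± 0.502 CPM in controls.

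Of the E2F and DP factors, 7 of 10 were positive and 3 negative. E2f8, a repressor of the E2F family, had 22.9, 23.8 and 21.6 CPM in cKO libraries, against 16.8, 16.8 and 17.7 CPM in controls. On the log2 scale cKO over control was 0.41 ± 0.10 (SE), with an unadjusted edgeR p of 0.00245 and an adjusted p of 0.994. E2f1, an activator of the family, had 27.8, 21.6 and 31.0 CPM in cKO libraries, against 25.8, 21.2 and 54.1 CPM in controls. The ratio of cKO over control on the log2 scale was -0.35 ± 0.40 (SE) and turned to 0.19 without control 3.

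Skp2, which targets the inhibitor p27 for degradation, averaged 31.7 ± 2.06 CPM in cKO libraries and 26.5 ± 1.70 CPM in controls (SD, n = 3 each), a log2 fold change of 0.26 ± 0.10 (SE) with an unadjusted edgeR p of 0.0249 (adjusted p = 0.994). In the same degradation list, 5 of 9 genes were positive and 4 negative, with Fbxo31 at -0.11 the lowest of those with a mean of 10 CPM or more. Ambra1, at a mean of 8.10 CPM, was lower at -0.28. Cdk7, the kinase that activates the other CDKs, averaged 51.2 ± 1.60 CPM in cKO libraries and 57.0 ± 3.56 CPM in controls, and its partner Ccnh 104.1 ± 6.66 CPM in cKO libraries and 103.4 ± 7.28 CPM in controls. In that list of 3 genes, 2 were positive and 1 negative.

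Wee1, which opposes the Cdc25 phosphatases, averaged 21.1 ± 1.77 CPM in cKO libraries and 17.5 ± 3.67 CPM in controls (SD, n = 3 each). Cdc25c averaged 14.7 ± 1.02 CPM in cKO libraries and 13.9 ± 2.99 CPM in controls, and 3 of the 4 genes of the phosphatase and Wee list were positive. In the Myc network 3 of 8 tested genes were positive and 5 negative, from Mxi1 at 0.29 to Mnt at -0.35 on the log2 scale. Among those with a mean of 10 CPM or more they ran from Mxd4 at 0.28, which was 0.088 without cKO 1, to Mycl at -0.13. Of the later cyclins and CDKs 4 of 5 were positive, with log2 fold changes of 0.09 for Ccna2 (0.059 to 0.15 with 1 library left out) and 0.00 for Ccnb1. Of the 3 pocket proteins Rbl1 was positive, and Rbl2 (0.00 to 2 decimals) and Rb1 were negative.

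The authors sorted the cells into 5 numbered clusters without names, and the 10 genes were measured in each. CPM here are sums of a cluster's cells per library, without TMM factors, and the clusters were made from the same cells, so differences between clusters are a description. Clusters 0 and 1 held most cells, with 39.8 to 44.5% and 33.5 to 36.3% of each cKO library and 40.2 to 44.8% and 37.7 to 38.4% of each control. Cluster 4 had 10 to 20 cells per cKO library and 10 to 27 per control.

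The E-type cyclin Ccne1 was set apart by cluster 0. Its mean over 6 libraries was 84.1 ± 8.10 CPM in cluster 0 (SD), against 58.5 ± 12.0 in cluster 4, 52.7 ± 6.94 in cluster 3, 36.6 ± 6.90 in cluster 2 and 34.7 ± 10.9 in cluster 1. The lowest library of cluster 0, at 70.5 CPM, was above the highest of every other cluster, at 69.9 CPM. Clusters 1 and 2 did not differ beyond their spread. Its partner Cdk2 averaged 36.4 ± 7.38 CPM in cluster 0, 36.0 ± 9.60 in cluster 2, 34.3 ± 13.2 in cluster 3, 28.4 ± 12.0 in cluster 4 and 21.4 ± 4.33 in cluster 1. Cdk2 was higher in cluster 0 than in cluster 1 in 6 of 6 libraries, while neighbours among clusters 0, 2, 3 and 4 in that order did not differ beyond their spread.

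Cdc25a averaged 106.2 ± 11.1 CPM in cluster 0, 101.1 ± 16.8 in cluster 3, 93.1 ± 17.8 in cluster 1, 69.7 ± 28.1 in cluster 4 and 59.7 ± 5.50 in cluster 2. It was lower in cluster 2 than in clusters 0 and 1 in 6 of 6 libraries. Ccnd3 had the same lowest cluster, with 85.3 ± 13.6 CPM in cluster 2 and 107.4 to 116.9 CPM in the other 4. Cdk4 varied little, from 428.4 ± 28.8 CPM in cluster 1 to 469.6 ± 19.0 in cluster 3, and was higher in cluster 3 than in cluster 1 in 6 of 6 libraries.

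Mycn ran from 59.4 ± 11.4 CPM in cluster 4 to 80.6 ± 10.6 in cluster 3 and 80.5 ± 7.84 in cluster 1, and it was lower in cluster 0 (67.4 ± 9.74) than in cluster 1 in 6 of 6 libraries. Mycn thus had the reverse order of Ccne1 and Cdk2 between the pair of large clusters. Cdk6 was highest in cluster 3 at 23.7 ± 4.62 CPM, above clusters 0 and 1 (15.3 ± 2.22 and 14.1 ± 2.80) with no overlap between libraries. The margin was small: the lowest library of cluster 3, cKO 3, had 17.89 CPM. The highest of clusters 0 and 1 had 17.68 and 17.80 CPM. Control 3 in cluster 3 had 18.4 CPM on 3 UMIs. Cdk6 in cluster 2, at a mean of 17.5 ± 5.39 CPM and 27.1 CPM in control 2, overlapped with cluster 3. Ccne2 averaged 7.14 to 18.1 CPM over the 5 clusters, with ranges that overlapped between all of them. Ccnd1 averaged 7.25 to 18.2 CPM, and in control 3 it was 3.31, 6.53, 3.94, 0 and 3.03 CPM in clusters 0 to 4, the lowest library in clusters 0 to 3.

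Ccnd2 averaged 5.67 to 7.36 CPM in clusters 0 to 2 and 2.18 CPM in cluster 4. In cluster 3 it had 12.0, 11.7 and 17.1 CPM in cKO libraries, against 25.2, 3.22 and 110.2 CPM in controls. Control 3 stood apart from the other 5 libraries. Its cluster 3 held 25 cells with a median of 4654 UMIs, and Sertoli and stromal markers summed to 85.7 CPM each there. In the other 5 libraries these sums were 11.4 to 67.3 and 12.0 to 17.1 CPM in cKO libraries, and 5.30 to 20.9 and 13.3 to 72.5 CPM in controls 1 and 2. The part of those cells in the Ccnd2 value was not tested. Control 2 had a macrophage marker sum of 587.8 CPM in cluster 3, while the other 5 libraries had 0 to 6.12 CPM.

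**Figure D2:**
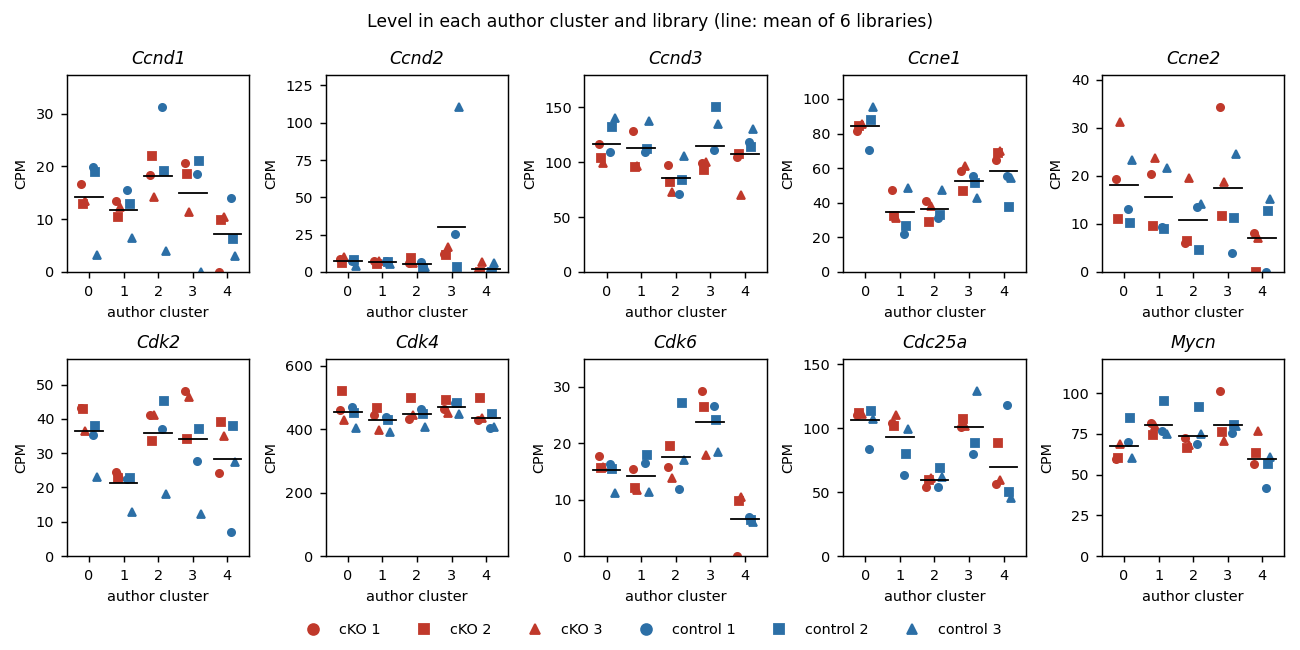
Level of each of the 10 genes in each of the 5 author clusters, as CPM of the cells of 1 cluster and library (vertical axis, from 0). Each symbol is 1 library, cKO left of control in each cluster, and the line is the mean of 6 libraries: Ccne1 averages 84.1 CPM in cluster 0 and 34.7 CPM in cluster 1, and control 3 has 110.2 CPM of Ccnd2 in cluster 3.

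Within clusters 0 to 3, which had at least 20 cells in every library, cKO was tested against control cluster by cluster. edgeR called 0 of the 10 genes in each, and 0% of all genes in each, as did DESeq2. At an unadjusted p under 0.05, edgeR listed Ccnd3 in cluster 0 (beside 3.88% of all genes), Cdc25a in cluster 1 (3.37%), none in cluster 2 (4.04%), where Ccnd2 was too low to test, and Ccnd3 in cluster 3 (3.37%). DESeq2 listed Ccnd3 in cluster 0, Cdc25a in cluster 1, none in cluster 2 and Ccnd2 in cluster 3. The groups did not overlap for 0 of 10 genes in cluster 0 (8.99% of all genes), 1 in cluster 1 (8.87%), 0 in cluster 2 (9.03%) and 1 in cluster 3 (9.06%).

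Cdc25a in cluster 1 had 103.7, 101.8 and 110.4 CPM in cKO libraries, against 63.5, 79.7 and 99.2 CPM in controls. All cKO libraries were higher, and control 3 was the nearest of the controls. By edgeR this was a log2 fold change of 0.35 ± 0.15 (SE), at an unadjusted p of 0.0446 and an adjusted p of 0.9997. It was 0.57 without control 3 and 0.20 without control 1, and the adjusted p without control 3 was 0.177.

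Ccnd3 in cluster 3 had 99.4, 92.7 and 100.01 CPM in cKO libraries, against 111.3, 149.8 and 134.7 CPM in controls. All cKO libraries were lower than all controls. This gave a log2 fold change of -0.42 ± 0.17 (SE), with an edgeR unadjusted p of 0.0184 and an adjusted p of 0.9997. It was -0.29 without control 2, whose cluster 3 held the macrophage markers, and -0.40 without control 3. In cluster 0, Ccnd3 averaged 106.5 ± 8.84 CPM in cKO libraries and 127.3 ± 16.1 CPM in controls (SD, n = 3 each), and the groups overlapped. Its log2 fold changes in clusters 0 to 3 were -0.28, -0.21, -0.11 and -0.42, and without control 3 they were -0.18, -0.069, 0.11 and -0.40. Those of Cdk2 were 0.36, 0.31, 0.31 and 0.53, and without control 3 they were 0.16, 0.06, -0.08 and 0.42.

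Whether the cKO effect differed between clusters 0 to 3 was tested as an interaction in edgeR, with the library as a block. It was called for 0 of the 10 genes and 0% of all genes. At an unadjusted p under 0.05 it listed 1 of the 10, beside 4.73% of all genes: Cdc25a, with an unadjusted p of 0.0243 and an adjusted p of 0.999. For Cdc25a the log2 fold change was 0.22 larger in cluster 1 than in cluster 0 in that fit, and 0.16 smaller in cluster 2 than in cluster 0.

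**Figure D3:**
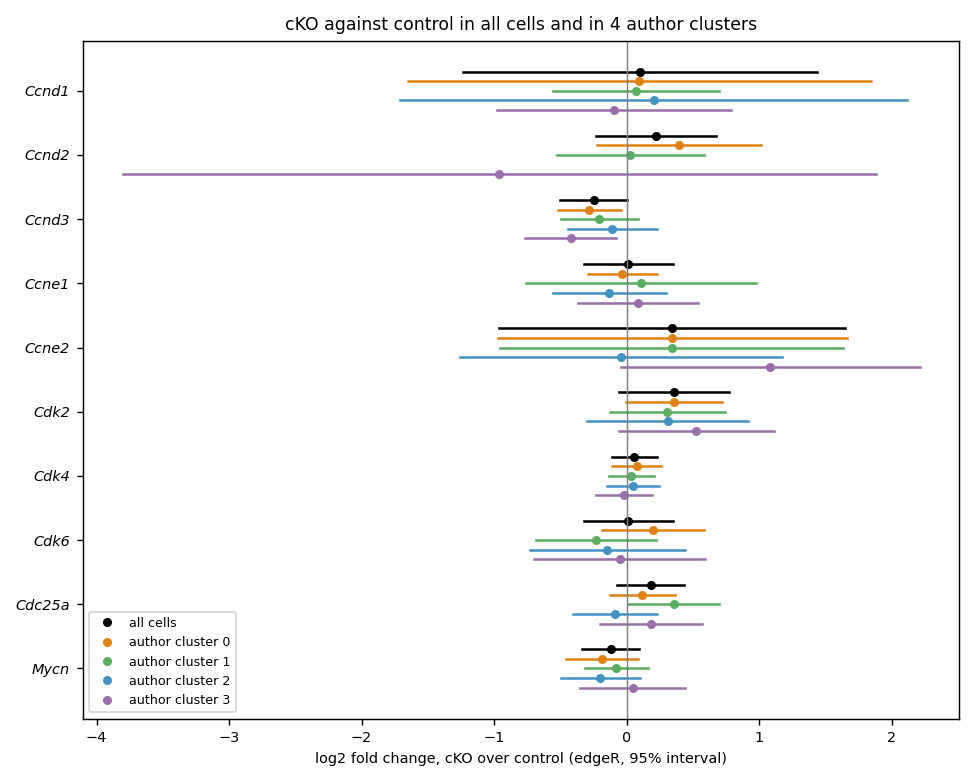
Log2 fold change of cKO over control for each of the 10 genes (horizontal axis; points, with 95% intervals as lines) by edgeR in all cells and in author clusters 0 to 3; Ccnd2 was not tested in cluster 2. Positive values are higher in cKO. Cdk4 has the shortest interval in all cells and in each cluster, and Ccnd1, Ccnd2 and Ccne2 have the longest in all cells.

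The place of the 10 genes in the cycle was described with an index per cell, the summed UMIs of replication genes (such as Pcna, Cdt1, Rrm2 and Ung) or of mitosis genes (such as Plk1, Aurka and Top2a), after each cell had been thinned to 10000 UMIs. None of the 10 is in either index. The 4698 cells deep enough were divided into 4 quartiles of each index, with cuts at 36, 46 and 56 UMIs for replication and 27, 36 and 49 UMIs for mitosis. Levels in a quartile are UMIs per 10000.

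Ccne1 and Cdk2 were higher in cells with a higher replication index. Ccne1 averaged 0.303 ± 0.0902, 0.498 ± 0.141, 0.708 ± 0.107 and 0.841 ± 0.116 in quartiles 1 to 4 of the replication index (SD over 6 libraries). The log2 ratio of the top to the bottom quartile was 1.48 ± 0.38 and positive in 6 of 6 libraries, and 99.7% of the 8413 genes measured had a smaller mean ratio. Cdk2 averaged 0.202 ± 0.0489, 0.257 ± 0.0754, 0.344 ± 0.0679 and 0.448 ± 0.0860, a log2 ratio of 1.13 ± 0.10 that was positive in 6 of 6 libraries and above that of 99.5% of genes. Along the mitosis index both ran the other way: the log2 ratio was -1.40 ± 0.35 for Ccne1 and -0.97 ± 0.37 for Cdk2, negative in 6 of 6 libraries for each.

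The other members differed less along the replication index. The log2 ratio was 0.43 ± 0.42 for Ccne2 (positive in 5 of 6 libraries), 0.26 ± 0.32 for Cdc25a (6 of 6) and 0.12 ± 0.06 for Cdk4 (6 of 6). Ccne2 therefore had a ratio much closer to 0 than its family member Ccne1, on 0.149 to 0.190 UMIs per 10000 in a quartile. The mean ratio of Ccne2 was still above that of 93.4% of the 8413 genes, that of Cdc25a above 85.4% and that of Cdk4 above 70.3%. The D-type cyclins had ratios of 0.23 ± 0.71 for Ccnd1, -0.22 ± 0.44 for Ccnd2 and 0.04 ± 0.13 for Ccnd3, and Cdk6 had 0.22 ± 0.46. Mycn had the lowest, at -0.33 ± 0.36, positive in 1 of 6 libraries.

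Along the mitosis index Mycn was the member that was highest in the top quartile. It averaged 0.658 ± 0.0816, 0.674 ± 0.0410, 0.630 ± 0.0595 and 0.930 ± 0.101 in quartiles 1 to 4. The log2 ratio was 0.49 ± 0.07, positive in 6 of 6 libraries and above that of 94.5% of genes. The other 7 members had ratios between -0.22 (Ccnd2) and 0.05 (Ccnd1).

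**Figure D4:**
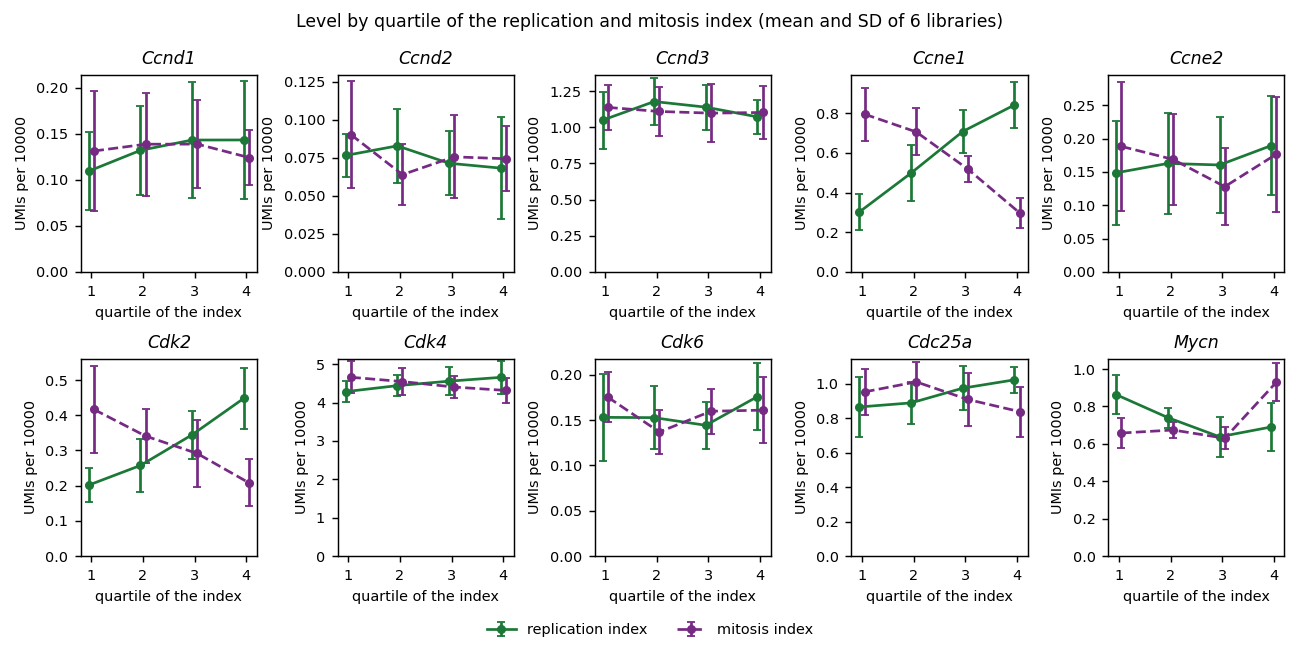
Level of each of the 10 genes in quartiles of the replication index (solid line) and the mitosis index (dashed line), as UMIs per 10000 (vertical axis, from 0), with the mean and SD of 6 libraries. Ccne1 and Cdk2 are highest in the top replication quartile, at 0.841 and 0.448, and Mycn in the top mitosis quartile, at 0.930.

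Cells of these 3 cKO libraries held more replication UMIs on average than cells of these 3 control libraries. The index averaged 49.1, 47.6 and 50.7 UMIs per cell in cKO libraries, against 43.7, 44.9 and 42.9 in controls, with no overlap (exact permutation p = 0.1, two-sided, the smallest that 3 against 3 libraries can give). The mitosis index averaged 40.6 ± 2.01 UMIs in cKO libraries and 38.7 ± 1.01 in controls (SD, n = 3 each, exact permutation p = 0.2). At an exact permutation p of 0.1 the replication index describes these libraries and does not establish a difference between genotypes. Because its groups did not overlap, levels of the 10 genes were also set at equal weight of the 4 replication quartiles in every library. This alternative was chosen after the data had been seen. No member's groups were then apart, beside 7.9% of all genes.

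Ccne1 at equal weight was 0.539, 0.533 and 0.550 UMIs per 10000 in cKO libraries, against 0.528, 0.602 and 0.774 in controls. The groups overlapped through control 1 (exact permutation p = 0.4, two-sided). The log2 ratio of the means was -0.23 at equal weight and -0.05 without weighting. Cdk2 at equal weight was 0.358, 0.336 and 0.332 in cKO libraries, against 0.303, 0.350 and 0.197 in controls. Control 2 then lay among the cKO libraries, and the log2 ratio was 0.27 at equal weight and 0.43 without weighting (exact permutation p = 0.3 at equal weight).

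The slope along each index was compared between genotypes as well. Along the replication index the log2 ratios of 3 of the 10 genes did not overlap between the groups, beside 10.6% of all genes. Cdk4 had 0.17, 0.17 and 0.14 in cKO libraries, against 0.12, 0.08 and 0.02 in controls. Ccnd1 had 1.07, 0.78 and 0.28 in cKO libraries, against 0.06, 0.21 and -0.998 in controls. These Ccnd1 ratios rest on few UMIs. The lowest library had 0.0575 UMIs per thinned cell in the bottom quartile, and the lowest had 0.0238 in the top quartile. The top quartile held 126 cells in control 3, and the bottom quartile held 81 cells in cKO 1. The pseudocount of 0.01 UMIs is not small beside such levels. Mycn had -1.01, -0.29 and -0.38 in cKO libraries, against -0.21, 0.00 and -0.08 in controls. Each of the 3 had an exact permutation p of 0.1, the smallest possible, among 10 genes compared in this way. The count was 1 of 10 with quartiles set within each library, beside 10.6% of all genes, and 1 of 10 at 5000 UMIs per cell, beside 10.3%. For Ccne1 and Cdk2 the groups overlapped, with means of 1.48 ± 0.29 in cKO libraries and 1.48 ± 0.52 in controls for Ccne1, and 1.10 ± 0.12 in cKO libraries and 1.15 ± 0.11 in controls for Cdk2 (SD, n = 3 each). Along the mitosis index the groups were apart for 0 of the 10, beside 9.6% of all genes, and for 2 of the 10 with quartiles set within each library, beside 9.43%.

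How unevenly single cells held each transcript was measured by the variance of the thinned counts over their mean, which is 1 for pure counting noise. The 10 genes had ratios of 0.909 to 1.85 in single libraries, and the median over 8437 genes was 1.03. Ccne1 had 1.17, 1.16 and 1.22 in cKO libraries, against 1.25, 1.30 and 1.14 in controls. The highest single value, 1.85, was that of Ccnd2 in control 3. The groups did not overlap for 2 of the 10 genes, beside 9.59% of all genes. Ccnd1 had 1.09, 1.19 and 1.05 in cKO libraries, against 1.38, 1.25 and 1.27 in controls, and Cdk6 had 0.993, 0.972 and 1.01 in cKO libraries, against 1.05, 1.07 and 1.05 in controls. Both had an exact permutation p of 0.1, the smallest possible, among 10 genes compared. With each cell scaled to 10000 UMIs in place of thinning, the count was 0 of 10, beside 1.77% of all genes. Scaled counts carry each library's depth into the ratio, so that count cannot be set beside the one from thinned cells.

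The genes most like each member were found by Pearson's r of log2(CPM + 1) over the 24 sums of 6 libraries and clusters 0 to 3, among 6772 genes. The sums share libraries, clusters and depth, so these values are a description. Ccne1 was most like Ung (0.86), E2f8 (0.86) and Rrm2 (0.85), which have roles in base excision repair, E2F repression and nucleotide synthesis. Without control 3 these were 0.88, 0.91 and 0.92. Cdk2 was most like Uba2 (0.91), Uhrf1 (0.88) and Rpa2 (0.87), and these were 0.81, 0.78 and 0.86 without control 3. Cdc25a was most like Cdt1 (0.89), a replication licensing factor, Gins2 (0.86) and Pdia6 (0.85).

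The likeness of Ccnd1 rested in part on control 3. Ccnd1 was most like Vdac3 (0.95), Slc9a3r1 (0.92) and 8030474K03Rik (0.92), but without control 3 these values were 0.73, 0.62 and 0.51. Ccnd3 was most like Txnrd1 (0.86), Cyb5a (0.84) and Ak1 (0.84), at 0.81, 0.84 and 0.85 without control 3. Ccne2 was most like RP23-4H17.3 (0.80), Dhx15 (0.78) and Cfdp1 (0.78). Cdk4 was most like Gpx4 (0.82), Erh (0.77) and Ranbp1 (0.76), Cdk6 most like Srsf10 (0.79), Pitpnc1 (0.78) and Zscan26 (0.77), and Mycn most like Cfl1 (0.69), Nsun2 (0.65) and Mapre1 (0.65). Among the members themselves the highest r was 0.73, between Ccnd1 and Cdk2, both of which were low in control 3, and the next were 0.58 between Ccne1 and Cdc25a and 0.55 between Ccnd3 and Cdc25a.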

How the data were processed

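Male germ cells of E14.5 mouse testes, 3 Rb1 cKO and 3 control libraries made with 10x v2 chemistry, were measured by single-cell RNA sequencing. The authors deposited raw UMI counts as whole numbers, 27998 genes in 5160 barcodes, and a table with each barcode's sample and cluster number. Cell Ranger, Seurat 3.0 and the build mm10 appear in the submitters' processing notes, with no parameters; how doublets or strand were treated is not given in the sources used here. The 5154 barcodes with 500 genes or more and a mitochondrial share below 10% were kept. Scrublet in scanpy 1.11.5 called 160 doublets (3.10%), which were kept. Across libraries 9 barcode sequences recurred. Thinning to 10000 UMIs left out 456 shallower cells: 25, 91 and 66 in cKO 1 to 3 and 43, 13 and 218 in controls 1 to 3.

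Counts were summed per library, or per library and author cluster with at least 20 cells in every library, since cells are not replicates. edgeR 4.0.16 in R 4.3.3 (quasi-likelihood test, robust, filterByExpr, TMM factors, no covariate, two-sided) was fitted to all genes, with Benjamini-Hochberg adjustment at 0.05; intervals are 95% intervals from the moderated t distribution. CPM over all cells use the TMM factors, and those of clusters and marker lists do not. DESeq2 1.42.0, RLE size factors, no low-count filter, a replicate block, single libraries left out, all barcodes, no doublets, no clusters 3 and 4, and equal UMIs per cell were the alternatives. Values per library were compared by exact permutation tests over 20 labelings. Quartile ratios used a pseudocount of 0.01 UMIs, and genes needed a mean of 0.05 UMIs per cell. The fits and the variance ratio were tested on simulated data.

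All 10 members are named; of each regulator list the genes of largest and smallest log2 fold change at 10 CPM or more, with Rb1; within clusters the members at 10 CPM or more whose groups do not overlap; and the 3 most alike genes of each member at 10 CPM or more. Some genes outside this rule were added after their values were seen. They are Myc, Mxi1, Mnt, Cdkn1b, Cdkn2b, the overlapping genes and those listed by name for groups that do not overlap. The members and lists were chosen with earlier results of these data known. Coordinates are from GENCODE M21 (GRCm38, the assembly that mm10 names), and promoters from RefSeq.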

Additional observations from a re-analysis of the deposited data

Results flagged for a closer look

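Cluster 4 was left out of the tests because it held 10 to 20 cells per cKO library and 10 to 27 per control. In it Ccne1 had 64.6, 68.5 and 69.9 CPM in cKO libraries, against 55.7, 37.8 and 54.6 CPM in controls, so the mean of 67.7 CPM in cKO libraries lay above every control. What marks it for a second look is that the tests within clusters left these cells out, although the sum over all cells includes them. The Ccne1 difference rests on 6 to 20 UMIs per library and was not tested. Ccne1 was chosen from 10 genes, and the share of all genes with groups apart in cluster 4 was not measured. In the tested clusters that share was 8.87 to 9.06%. Ccnd3 in the same cells had 105.0, 107.6 and 69.9 CPM in cKO libraries, against 118.3, 113.5 and 130.4 CPM in controls. All cKO libraries were thus lower than all controls for Ccnd3, on 13 to 43 UMIs per library, which was not tested either. The rule for this section took only genes with all cKO libraries higher, so Ccnd3 was not flagged.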

How the results depend on the processing

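Over 51 results and 590 settings, 525 values were tallied as kept. For fold changes this means the same direction and side of the threshold, and for differences the same direction. For counts it means a value near the main count, so small changes in a count are among the 525. Of the rest, 32 moved, 3 passed the threshold that had not and 30 turned their direction, each of a gene or ratio that was not called. None of the 10 members was called in any setting. The count of genes called in all cells was 3 with DESeq2, 6 without the low-count filter and 0 to 4 with 1 library left out, 4 without control 3. Without the filter it was 15, 8, 3 and 17 in clusters 0 to 3 and 7 for the difference between clusters; with 1 library left out these ranged over 0 to 2, 0 to 2, 0 to 2, 0 to 3 and 0 to 24, the highest (24) without control 1. Libraries of the same replicate number had correlations of deviations of -0.13, 0.23 and 0.20 for replicates 1 to 3. For replicates 2 and 3 this was each library's highest with the other genotype, and a pairing was not tested. With the replicate block edgeR called 0 genes in all cells and 2 in cluster 3. In all cells it listed 523 of 11857 genes at an unadjusted p under 0.05, 2 of the 10 members among them. They were Ccne2 (log2 fold change 0.37 ± 0.15 SE, unadjusted p 0.0324) and Cdk2 (0.39 ± 0.16 SE, 0.0419), each at an adjusted p of 0.991. The log2 fold change of Ccne1 was -0.0082 without doublets and -0.069 at equal UMIs, that of Cdk6 -0.016 without clusters 3 and 4, that of Ccnh -0.010 at equal UMIs, and that of Ccnb1 0.000336 with the replicate block, 0.00171 without doublets, 0.012 without clusters 3 and 4 and 0.029 at equal UMIs. The adjusted p of Rb1 was 0.0479 with DESeq2 and 0.0181 without the filter. With 1 library left out the log2 fold change ranged from -0.35 to 0.51 for Ccnd1, -0.11 to 0.21 for Ccne1, -0.062 to 0.86 for Ccne2, -0.0088 to 0.095 for Cdk4, -0.13 to 0.12 for Cdk6, -0.58 to 0.19 for E2f1, -0.043 to 0.061 for Ccnh, -0.078 to 0.20 for Cdc25c, -0.30 to 0.072 for Fbxo31, -0.28 to 0.038 for Mycl and -0.042 to 0.036 for Ccnb1. The direction turned without control 1 (Ccne1, Ccnh, Ccnb1), control 2 (Ccne1, Cdc25c, Mycl, Ccnb1), control 3 (Ccnd1, Cdk6, E2f1, Fbxo31), cKO 1 (Cdk6), cKO 2 (Cdk4, Ccnh) or cKO 3 (Ccne1, Ccne2, Ccnh, Fbxo31, Ccnb1). The difference in the share of Ccnd1, Ccnd3 and Cdk6 in their families ranged from -1.63 to 4.03, -6.29 to 0.61 and -0.36 to 0.081 percentage points.

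Members whose groups did not overlap numbered 0 for the variance ratio with scaling in place of thinning (1.77% of all genes). With 1 library left out they numbered 2 to 5 for that ratio (18.3 to 21% of all genes), 5 without control 1. For the replication quartiles they numbered 1 at 5000 UMIs (10.3%), 1 with quartiles within each sample (10.6%) and 4 to 5 with 1 library left out (19.5 to 22.6%), 5 without control 2 or control 3. For the mitosis quartiles they numbered 1 at 5000 UMIs (9.84%), 1 with the index split at its median (9.15%), 2 with quartiles within each sample (9.43%) and 0 to 4 with 1 library left out (18.6 to 20.2%), 4 without cKO 1. Groups of 2 and 3 libraries are apart more often than groups of 3, so counts with 1 library left out cannot be read beside the others. The cause of these shifts was not tested. Low counts limit Ccnd1, Ccnd2, Ccne2 and Cdk6, with 48 to 436 UMIs per library, and exact tests of 3 against 3 libraries cannot give a p below 0.1.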
